A study of Mus musculus with 29 samples.

Results

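The tibialis anterior, a mostly fast-twitch muscle at the front of the lower leg, was profiled for microRNAs (miRNAs) in C57BL/6 mice whose muscle wasted from disuse and in untreated mice of the same age. The 10 libraries described here, 5 of disuse muscle and 5 of young muscle, were taken from 29 libraries in all, by the tissue and condition that the labels give. Both groups were 6 months old. The labels call the young mice controls and describe the other group as an atrophy model caused by disuse. How the leg was unloaded, and for how long, was not given in the sources used here. Muscle of mice aged 24 months (5 libraries) and serum (14 libraries) make up the rest of the series. The old muscle entered the fit as a further group of the same tissue, and its values are given only beside a few results. No label states that each numbered library came from a separate animal, so every p-value measures the spread between these libraries, which may be partly technical. Of 695 miRNAs with a value in every library, 602 had a count in at least 1 of the 10 libraries and 341 had enough counts to be tested.

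A miRNA is cut from a hairpin in a longer transcript, and either arm of the hairpin (5p or 3p) can be kept. It then guides an Argonaute protein to messenger RNAs, mainly through the seed, bases 2 to 8 from its 5′ end, and lowers their translation and stability. Striated muscle holds a small set of very abundant miRNAs, the myomiRs, which act in myoblast proliferation, fibre type and growth signalling. Atrophy from disuse is known to involve loss of contractile protein, shifts of fibre type and remodelling of the collagen matrix.

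The miRNAs on which the results turn are shown first, with the seed in capitals, as RefSeq gives them on the mouse build GRCm38.p6. They are the miRNA that passed the test, the miRNAs next to it in order of p, and the relatives that carry the same seed or come from the same hairpin.
miR-455-3p: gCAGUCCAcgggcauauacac
miR-92a-1-5p: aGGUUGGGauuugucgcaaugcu
miR-92a-3p: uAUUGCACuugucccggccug
miR-6240: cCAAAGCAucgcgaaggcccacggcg
miR-222-3p: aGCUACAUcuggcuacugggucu
miR-221-3p: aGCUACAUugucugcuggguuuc
miR-214-3p: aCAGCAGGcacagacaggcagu
miR-29a-3p: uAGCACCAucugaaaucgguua
miR-29b-3p: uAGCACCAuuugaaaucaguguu
miR-29c-3p: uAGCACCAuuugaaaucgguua
miR-149-5p: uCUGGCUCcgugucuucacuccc
miR-18a-3p: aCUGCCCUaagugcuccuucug
miR-10a-5p: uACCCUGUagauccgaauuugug
miR-10b-5p: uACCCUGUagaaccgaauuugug
miR-541-5p: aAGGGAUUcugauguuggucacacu
miR-342-3p: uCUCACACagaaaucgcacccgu
The list holds 3 shared seeds: GCUACAU in miR-222-3p and miR-221-3p, AGCACCA in the 3 miR-29 members, and ACCCUGU in miR-10a-5p and miR-10b-5p. miR-92a-1-5p and miR-92a-3p come from opposite arms of a hairpin and have different seeds. That hairpin, Mir92-1, lies on the plus strand at chr14:115044427-115044506, and its 5p arm is in capitals here.
Mir92-1: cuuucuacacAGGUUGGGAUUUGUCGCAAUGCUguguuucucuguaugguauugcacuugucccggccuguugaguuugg

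The libraries differed in depth. Totals were 268350 to 2588831 counts in young muscle (median 535754) and 254624 to 4822157 in disuse muscle (median 2298437). Of the 4 libraries under 1000000 counts, 3 were young (1, 3 and 4) and 1 was disuse (3). A count of 0 allows a level of up to 1.16 to 11.2 CPM (counts scaled to 1000000 per library) in the young libraries and 0.622 to 11.8 in the disuse libraries, limits that cover counting error alone, because reads amplified by PCR without molecular identifiers are not separate molecules. Thinned to 254624 counts each, the young libraries held 362 to 386 miRNAs and the disuse libraries 362 to 387. Across miRNAs, the Spearman correlation between 2 disuse libraries had a median of 0.976 over 10 pairs, between 2 young libraries 0.935 over 10 pairs and between a disuse and a young library 0.947 over 25 pairs. These pairs share libraries and differ in depth, and miRNAs are not independent replicates. The biological coefficient of variation was 18.9% in disuse and 30.1% in young muscle.

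The myomiR list took 49.3 to 56.6% of the counts of the young libraries and 53.5 to 58.8% of those of the disuse libraries. Most of that was miR-133a-3p, a myomiR that acts in myoblast proliferation. It took 37.6 to 49.4% of the counts of the young libraries and 45.6 to 49.1% of those of the disuse libraries. Not every myomiR was abundant. miR-1a-3p was at 565 to 1355 CPM in young and 405 to 1522 CPM in disuse muscle. miR-206-3p was at 67.0 to 221 CPM in young and 48.1 to 206 CPM in disuse muscle. Between 23 and 25 miRNAs made up 90% of the counts in young muscle and between 22 and 24 in disuse muscle. Of markers of other tissues, the neural miR-124-3p had 1 count over the 10 libraries and the epithelial miR-200a-3p 0, and the hepatic miR-122-5p did not exceed 3.51 CPM. Other markers were present: the neural list summed to 601 to 1022 CPM in young and 801 to 997 CPM in disuse muscle, the hepatic list to 34.5 to 72.1 and 35.0 to 56.9 CPM, and the list of epithelium and pancreas to 7.29 to 36.3 and 18.1 to 38.3 CPM. Their part in the results was not tested. Blood was represented by miR-451a at 24.9 to 108 CPM in young and 32.1 to 43.1 CPM in disuse muscle. In such bulk tissue, fewer cells of a type and less RNA per cell cannot be told apart.

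Disuse and young muscle were compared to find miRNAs that differ with induced wasting at a constant age. miR-455-3p, best known from cartilage and encoded within an intron of Col27a1, a collagen gene (chr4:63256904-63256924, plus strand), fell in disuse muscle. It was the only miRNA to pass at an adjusted p under 0.05 in edgeR's quasi-likelihood test, 1 of 341 tested (0.293%). Its levels were 7.29, 25.8, 30.6, 17.5 and 63.6 CPM in young libraries 1 to 5. They were 5.60, 11.1, 16.0, 10.1 and 7.73 CPM in disuse libraries 1 to 5. The groups overlapped through young 1, whose 7.29 CPM stand for 2 counts, while each disuse library lay under the young median. The log2 fold change was -1.83 ± 0.39 (SE; 95% interval -2.64 to -1.02; adjusted p = 0.0336).

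The call of miR-455-3p rested on few counts and on more than 1 library. It was made of 239 counts in young and 107 in disuse muscle, of which young 5 gave 156. Without young 5 the log2 fold change was -1.26 (adjusted p = 0.163), and without disuse 1, 2, 4 or 5 or young 3 it was -1.67 to -1.94 with adjusted p = 0.0571 to 0.157. Among the 6 libraries of that comparison that exceed 1000000 counts it was -2.30 (adjusted p = 0.00282). These are 4 disuse and 2 young libraries, young 2 (25.8 CPM) and young 5 (63.6 CPM), so that value also rests on young 5. In the libraries under that total, the 3 young had a mean of 18.5 CPM and the 1 disuse library had 16.0 CPM. The other arm, miR-455-5p, had 2 counts in all of the young libraries and 8 in all of the disuse libraries, too few to be tested. The same miRNA had a log2 fold change of -1.96 between old and young muscle, a value that shares the young libraries, and of 0.13 ± 0.40 (adjusted p = 0.934) between disuse and old muscle.

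**Figure D1:**
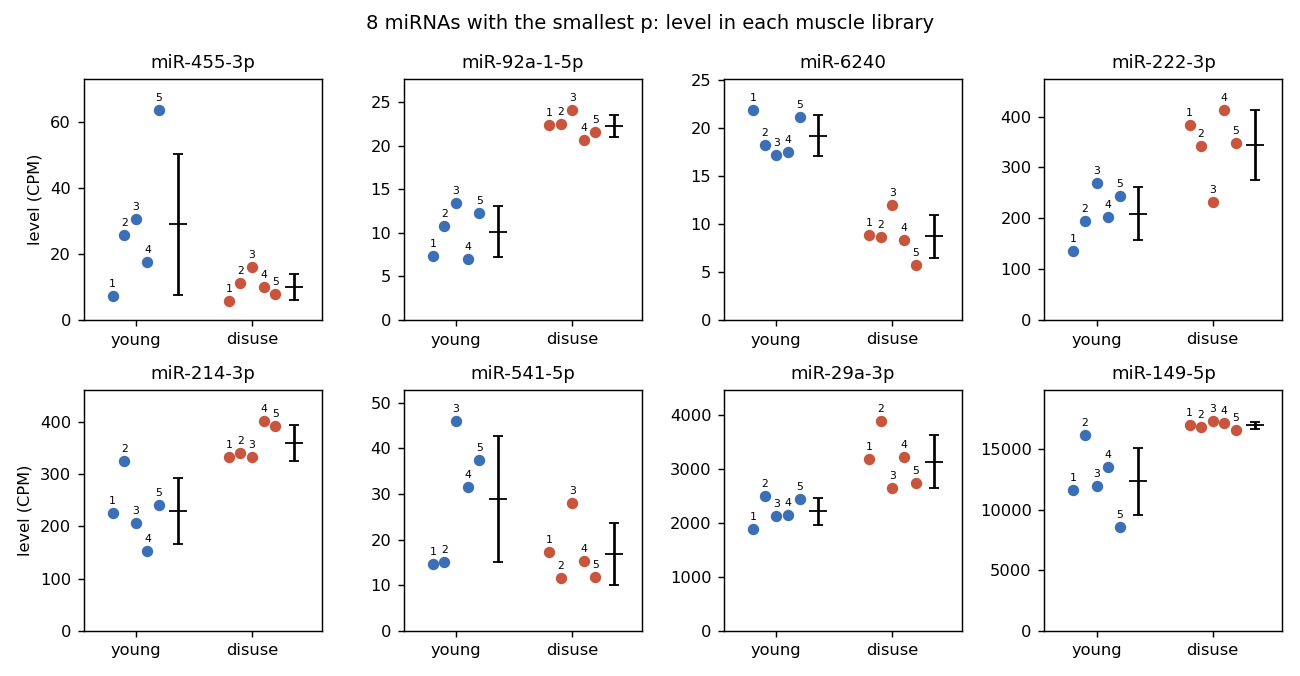
Level of the 8 miRNAs with the smallest p in each of the 10 muscle libraries, in CPM on linear axes that start at 0; points carry the library number and the bars are the mean and SD of 5 libraries. The groups are apart for miR-92a-1-5p, miR-6240, miR-214-3p, miR-29a-3p and miR-149-5p and overlap for miR-455-3p, miR-222-3p and miR-541-5p.

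An unadjusted p under 0.05 was found for 29 of the tested miRNAs (8.5%), 14 higher (4.11%) and 15 lower (4.4%) in disuse muscle. In 8 (2.35%) the 5 disuse libraries did not overlap the 5 young libraries: miR-92a-1-5p, miR-214-3p, miR-29a-3p, miR-149-5p, miR-18a-3p and miR-340-5p were above in disuse (1.76%), and miR-6240 and miR-30e-5p below (0.587%). miR-455-3p is not among these 8, and none of the 8 passed the adjusted threshold. The statements that follow on single miRNAs give measured levels of miRNAs that did not pass it.

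miR-92a-1-5p is the less abundant arm of the last hairpin of the miR-17-92 cluster, within an exon of the transcript Mir17hg (chr14:115044437-115044459). Its levels were 7.29, 10.8, 13.4, 6.99 and 12.2 CPM in young libraries 1 to 5 and 22.4, 22.5, 24.0, 20.6 and 21.6 CPM in disuse libraries 1 to 5. The disuse libraries lay within a narrow band above every young library, with 253 counts against 66. The log2 fold change was 1.03 ± 0.25 (adjusted p = 0.0652). The abundant arm of the hairpin, miR-92a-3p, which can also come from a second copy on the X chromosome, was at 18498 ± 3787 CPM in young and 18475 ± 2261 CPM in disuse muscle (SD, n = 5 each). miR-18a-3p, a minor arm from the same transcript, was at 7.29, 14.5, 13.4, 10.5 and 10.2 CPM in young and 20.5, 19.3, 16.0, 22.8 and 20.4 CPM in disuse libraries. Its groups were apart as well (log2 fold change 0.79 ± 0.26, adjusted p = 0.248).

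miR-6240 was annotated to chr5:114851973-114851998, where the GENCODE vM21 annotation lists no other gene. It was at 21.9, 18.3, 17.2, 17.5 and 21.2 CPM in young libraries and at 8.87, 8.62, 12.0, 8.34 and 5.70 CPM in disuse libraries. Every disuse library lay below every young library (log2 fold change -1.24 ± 0.31, adjusted p = 0.0712). It passed against old muscle, with 8.71 ± 2.25 CPM in disuse and 19.1 ± 8.73 CPM in old muscle (log2 fold change -1.18 ± 0.29, adjusted p = 0.0158).

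miR-222-3p and miR-221-3p share their seed and a locus on the X chromosome and are known to repress the cell cycle inhibitor p27. miR-222-3p was at 135, 194, 269.9, 203 and 244 CPM in young and at 384, 342, 232, 412 and 348 CPM in disuse libraries. The groups overlapped only through disuse 3, the shallowest library (log2 fold change 0.72 ± 0.21, adjusted p = 0.182). miR-221-3p was at 252 ± 60.1 CPM in young and 287 ± 54.1 CPM in disuse muscle, a log2 fold change of 0.20 with a 95% interval of -0.18 to 0.59. The opposite arm, miR-221-5p, had a log2 fold change of -0.98 ± 0.52, with 2.81 to 42.0 CPM in young and 5.29 to 12.0 CPM in disuse muscle. Among the libraries over 1000000 counts its direction turned, to 0.67, and each library under that total had more of it than any library over it.

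Among miRNAs of fibroblasts and matrix, miR-214-3p and miR-29a-3p were higher in every disuse library than in any young library. miR-214-3p, cut from the antisense transcript Dnm3os (chr1:162223438-162223459) and known from fibroblasts, was at 226, 326, 207, 152 and 241 CPM in young and at 332, 341, 333, 401 and 392 CPM in disuse libraries. Young 2 came closest to the disuse range (log2 fold change 0.63 ± 0.19, adjusted p = 0.192). miR-29a-3p, which represses collagen and other matrix messenger RNAs, was at 1883, 2494, 2130.3, 2147 and 2435 CPM in young and at 3176, 3883, 2645, 3219 and 2741 CPM in disuse libraries. Its log2 fold change was 0.50 ± 0.16 (adjusted p = 0.209). miR-29c-3p, which differs from it by 1 base, was at 172 ± 48.8 CPM in young and 197 ± 16.0 CPM in disuse muscle, and miR-29b-3p at 11.2 ± 3.21 and 12.3 ± 2.62 CPM. The counting could split reads between miR-29a-3p and miR-29c-3p, since its rule for reads with several matches is unknown here.

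Across the miR-29 list, 0 of 7 tested arms rose, 0 fell and 7 did not pass. All 7 had positive log2 fold changes, 0.03 to 0.50, with a median of 0.22 beside a median of -0.00 over all tested miRNAs. With upper-quartile scaling, which moves the median of all tested miRNAs to -0.19, 5 of the 7 were above 0 and all 7 stayed above that median. With library totals 5 were above 0 and 6 above the median, which was then -0.08. The smaller values were not stable: the log2 fold change of miR-29c-5p (0.03) changed sign in 11 of 22 alternatives and that of miR-29a-5p (0.07) in 7 of 21. Among the libraries over 1000000 counts all 7 were above 0 and none passed, with 1.11 for miR-29c-5p and 0.06 for miR-29c-3p. In the fibroblast and smooth muscle list 0 of 10 passed, and the median was 0.09. miR-143-3p and miR-145a-5p, the abundant miRNAs of smooth muscle and fibroblasts, were at 6175 ± 1517 and 10633 ± 2678 CPM in young and at 5410.5 ± 1012 and 10259.9 ± 3428 CPM in disuse muscle. miR-199a-3p, which can come from the Dnm3os transcript like miR-214-3p, was at 579 ± 99.6 and 631 ± 83.4 CPM. It can also come from a copy on chromosome 9. miR-199b-3p, from chromosome 2, has the same sequence. It was at 295 to 463 CPM in young and 356 to 511 CPM in disuse muscle.

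miR-149-5p, from an intron of the glypican gene Gpc1 (chr1:92850381-92850403), was the most abundant of the miRNAs whose groups were apart. Its levels were 11624, 16195, 11936, 13527 and 8621 CPM in young and 17008, 16842, 17326, 17216 and 16575 CPM in disuse libraries. The SD was 299 CPM in disuse and 2773 CPM in young muscle (log2 fold change 0.46 ± 0.15, adjusted p = 0.248). miR-31-5p, known to hold back the myogenic factor Myf5 in quiescent satellite cells, was at 1.75 to 12.2 CPM in young and 11.8 to 24.0 CPM in disuse muscle, with an overlap through young 2 (log2 fold change 0.89 ± 0.32, adjusted p = 0.267). miR-30e-5p was at 1329.9 to 1797 CPM in young and 961 to 1226 CPM in disuse muscle (log2 fold change -0.45 ± 0.18, adjusted p = 0.442).

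**Figure D2:**
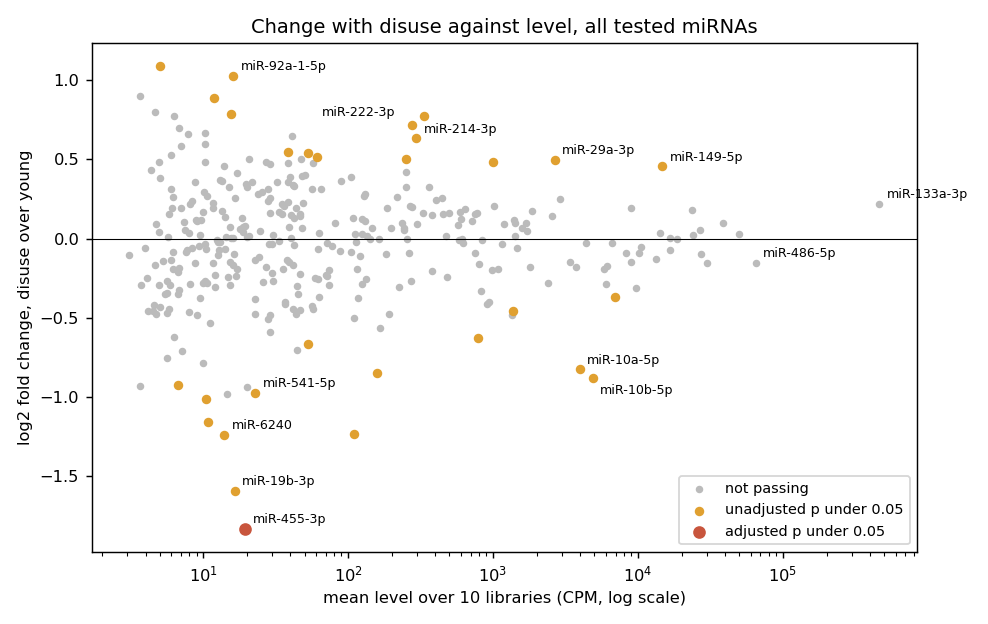
Log2 fold change of disuse over young muscle against the mean CPM of the 10 libraries (log scale) for the 341 tested miRNAs; colours mark an unadjusted p under 0.05 (29 miRNAs, the red point included) and an adjusted p under 0.05 (miR-455-3p). The points spread more widely at low levels, and miR-133a-3p, the most abundant, lies at 0.22.

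The myomiRs gave no call: 0 of 11 tested arms rose, 0 fell and 11 did not pass, with a median of -0.15. miR-133a-3p was at 427098 ± 66518 CPM in young and 497578 ± 32507 CPM in disuse muscle, a log2 fold change of 0.22 with a 95% interval of -0.08 to 0.52. miR-133b-3p, with which it shares nearly all bases, was at 839 ± 183 and 1170.5 ± 267 CPM, and young 1, 2 and 5 overlapped disuse 1. miR-486-5p, an abundant miRNA of striated muscle, was at 49182 to 89793 CPM in young and 52739.7 to 69944 CPM in disuse muscle (log2 fold change -0.15, 95% interval -0.49 to 0.19). The 11 arms also include those of miR-3107. miR-3107-5p was at 22677 to 40691 CPM in young and 24420 to 31839 CPM in disuse muscle (log2 fold change -0.15). It ranked the libraries of each group as miR-486-5p did, and whether they share reads was not tested. The slow-fibre miRNAs, encoded in myosin heavy chain genes, were at low levels in this muscle. miR-499-5p was at 26.9 ± 8.30 CPM in young and 31.0 ± 5.53 CPM in disuse muscle, and miR-208b-3p was at 0 to 21.9 CPM in young and 0 to 8.78 CPM in disuse muscle.

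miR-206-3p, which is enriched in satellite cells and regenerating fibres, and miR-1a-3p varied more within the groups than between them. miR-206-3p was at 113, 92.8, 67.0, 128 and 221 CPM in young and at 76.1, 123, 48.1, 80.8 and 206 CPM in disuse libraries. The library numbered 5 was the highest in each group, and the lowest were young 3 and disuse 3. miR-1a-3p was at 1355, 943, 565, 577 and 1195 CPM in young and at 493, 752, 405, 476 and 1522 CPM in disuse libraries. Its log2 fold change was -0.33 with a 95% interval of -0.96 to 0.30, which reaches to nearly 2-fold lower.

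Several of the largest differences followed library depth as well as group. The HOX cluster miRNAs miR-10a-5p and miR-10b-5p, which differ by 1 base, are an example with many counts. miR-10b-5p was at 7373, 2627, 7650.4, 10566 and 3317 CPM in young and at 3147, 2128, 7082, 2458 and 2401 CPM in disuse libraries. The 4 libraries under 1000000 counts (young 1, 3 and 4 and disuse 3) lay at 7082 to 10566 CPM and the 6 others at 2128 to 3317. miR-10a-5p had the same order, with 4854 to 7055 CPM in the 4 libraries and 1999 to 3309 CPM in the 6 others.

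The log2 fold changes of miR-10a-5p and miR-10b-5p were -0.82 ± 0.29 and -0.88 ± 0.35 (adjusted p = 0.267 and 0.442). Among the libraries over 1000000 counts they were -0.25 and -0.19. miR-19b-3p, of the miR-17-92 cluster, was at 29.1, 1.88, 17.2, 59.5 and 9.37 CPM in young and at 6.07, 5.67, 28.1, 3.95 and 5.29 CPM in disuse libraries. Its log2 fold change was -1.59 ± 0.69 over all libraries and -0.08 among the deeper ones. In all, 8 tested miRNAs were higher in each of the 4 shallow libraries than in any deep one, and 13, miR-133a-3p among them, were lower in each. The part of depth in these differences was not tested, and only 1 disuse library is shallow.

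Of the 25 miRNAs with the smallest p, 14 had a log2 fold change within 1.5 times of the same value in the deeper libraries alone, and 11 did not. Among the deeper libraries, 2 young and 4 disuse, the log2 fold changes were 0.96 for miR-92a-1-5p (1.03 over all libraries), -1.28 for miR-6240 (-1.24), 0.80 for miR-222-3p (0.72), 0.44 for miR-29a-3p (0.50), 0.48 for miR-149-5p (0.46) and 0.79 for miR-18a-3p (0.79). For miR-342-3p the value was 1.13 (0.78), also within 1.5 times. For miR-214-3p it was 0.41 (0.63) and for miR-133a-5p -0.49 (-0.85), moves of over 1.5 times. Other values that moved by over 1.5 times were 0.59 for miR-31-5p (0.89), 0.32 for miR-345-5p (0.54), -0.81 for miR-6236 (-1.24), -0.29 for miR-30e-5p (-0.45), -0.17 for miR-30a-5p (-0.37) and -0.97 for miR-126a-5p (-0.63). miR-455-3p passed in these libraries too, as given above, and no other miRNA did.

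**Figure D3:**
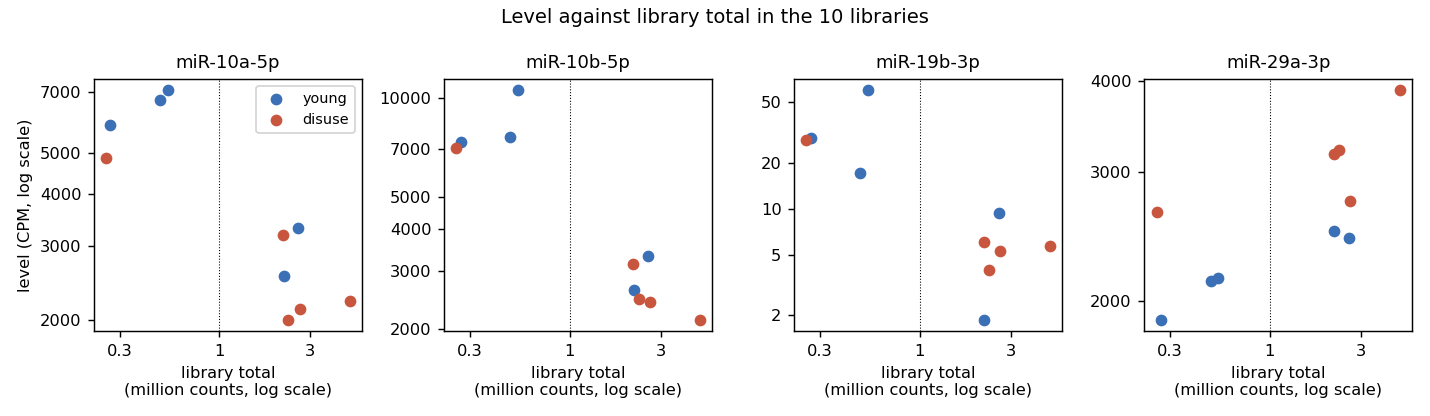
Level in CPM (log scale) of miR-10a-5p, miR-10b-5p, miR-19b-3p and miR-29a-3p against the library total in units of 1000000 counts (log scale) in the 5 young and 5 disuse libraries; the dotted line is 1000000 counts. The first 3 miRNAs are higher in the 4 libraries left of the line in both groups, and miR-29a-3p is higher in disuse than in young libraries on either side of it.

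Grouping by seed gave 242 testable families, of which 43 had more than 1 member. They were built from the 300 tested miRNAs with a RefSeq sequence, which together with untested members hold 33.9% of the counts of the 10 libraries. A single family passed (0.413%), CAGUCCA, and miR-455-3p is its sole member (log2 fold change -1.87 ± 0.39, adjusted p = 0.0222). The groups were apart in 3 families (1.24%), and they overlapped in this one. The miR-29 seed AGCACCA, of whose counts 93.7% are miR-29a-3p, had 2432 ± 222 CPM in young and 3206 ± 484 CPM in disuse muscle (log2 fold change 0.40 ± 0.14, adjusted p = 0.364). The seed of miR-10a-5p and miR-10b-5p, ACCCUGU, had a log2 fold change of -0.96 ± 0.34 with the same adjusted p. The other families with the smallest p each held 1 miRNA: GGUUGGG (miR-92a-1-5p, 0.98, adjusted p = 0.0637), AGGGAUU (miR-541-5p, -1.02) and CAGCAGG (miR-214-3p, 0.56).

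The balance between the arms of a hairpin needs no scaling between libraries. It could be tested for 82 hairpins, and 0 passed (0%), while 5 (6.1%) had an unadjusted p under 0.05. miR-342, from an intron of Evl and known from lymphocytes, had the smallest p. Its log2 ratio of 5p to 3p counts was -2.73, -2.69, -2.61, -2.57 and -2.16 in young and -3.31, -4.06, -3.17, -3.81 and -3.03 in disuse libraries. Every disuse library leaned further to the 3p arm (difference -0.92 ± 0.26, adjusted p = 0.219), and hairpins whose groups were apart made up 2.44% of those tested. The 3p arm was at 204, 241, 319.6, 296 and 172 CPM in young and 529, 462, 341, 476 and 287 CPM in disuse libraries, overlapping through disuse 5. The 5p arm was at 41.0 ± 9.23 and 37.2 ± 9.54 CPM.

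The next hairpins in order of p were miR-1306, miR-133a, miR-345 and miR-99b, with differences of -1.25, -0.97, 0.85 and 0.65 (adjusted p = 0.493 each). For miR-133a the 5p arm was lower and the 3p arm slightly higher in disuse muscle. miR-133a-5p was at 211, 155, 130.2, 386 and 126 CPM in young and at 108, 109.8, 192, 90.9 and 78.6 CPM in disuse libraries, and disuse 3, a shallow library, stood above the rest of its group. Over all 82 hairpins both arms had the same sign in 49.

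**Figure D4:**
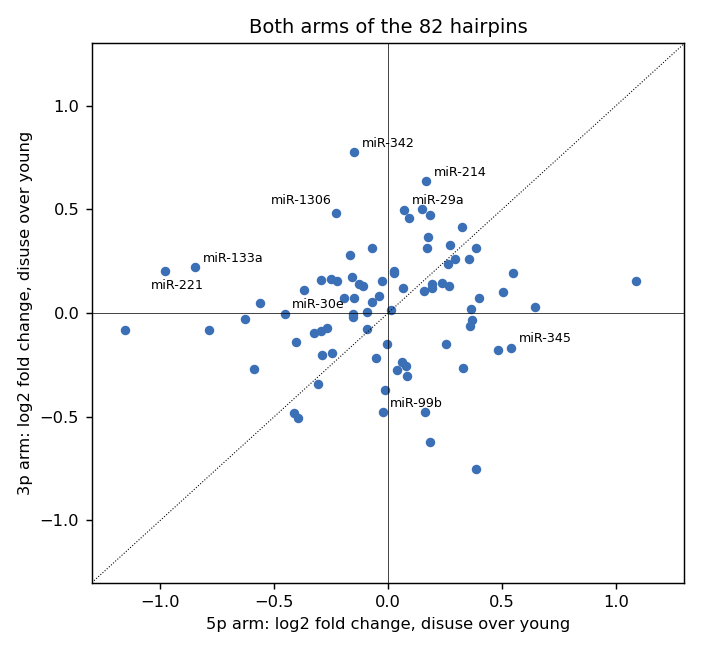
Log2 fold change of the 3p arm against that of the 5p arm, disuse over young muscle, for the 82 hairpins with both arms tested; the dotted line marks equal change. miR-342 lies far above the line (5p -0.15, 3p 0.78), as does miR-133a (5p -0.85, 3p 0.22).

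Neighbouring hairpins that can share a transcript were read together where they lay within 10000 bases on the same strand. The miR-17-92 cluster on chromosome 14 had 7 tested arms from -1.59 (miR-19b-3p) to 1.03 (miR-92a-1-5p), 4 higher and 3 lower. The low end rests on miR-19b-3p, which was at -0.08 among the libraries over 1000000 counts and can also come from a copy on the X chromosome. Its paralogue, the miR-106b-25 cluster on chromosome 5, had 6 of 6 tested arms higher, 0.09 to 0.46. Of these 6, 4 were above 0 with upper-quartile scaling, and all 6 were above the median of all tested miRNAs under each scaling. Both miR-29 clusters and the miR-199a-2 and miR-214 cluster had 4 of 4 tested arms above 0 and above that median in the TMM fit. With upper-quartile scaling 3 of 4, 3 of 4 and 1 of 4 were above 0. None of these arms passed the test, and the miR-199a arms and miR-29b-3p can also come from a further copy elsewhere.

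The miRNAs of the imprinted Dlk1-Dio3 domain, which are expressed from the maternal chromosome and active in satellite cells, leaned low. Of 27 tested members 0 rose, 0 fell and 27 did not pass; 22 had negative log2 fold changes and the median was -0.29, beside -0.00 over all tested miRNAs. Relative to the median of all miRNAs, 21 to 24 were lower under the 4 scalings tried. miR-541-5p was at 14.6, 15.0, 45.9, 31.5 and 37.5 CPM in young and at 17.3, 11.6, 28.1, 15.4 and 11.8 CPM in disuse libraries. Young 1 and 2 lay within the disuse range (log2 fold change -0.97 ± 0.31, adjusted p = 0.209). miR-540-3p was at 51.0 to 88.0 CPM in young and 16.0 to 57.5 CPM in disuse muscle (-0.66 ± 0.26, adjusted p = 0.407). miR-337-5p was at 20.7 ± 11.6 CPM in young and 33.2 ± 5.55 CPM in disuse muscle (0.48 ± 0.32, adjusted p = 0.671), with a log2 fold change of 0.08 among the libraries over 1000000 counts.

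**Figure D5:**
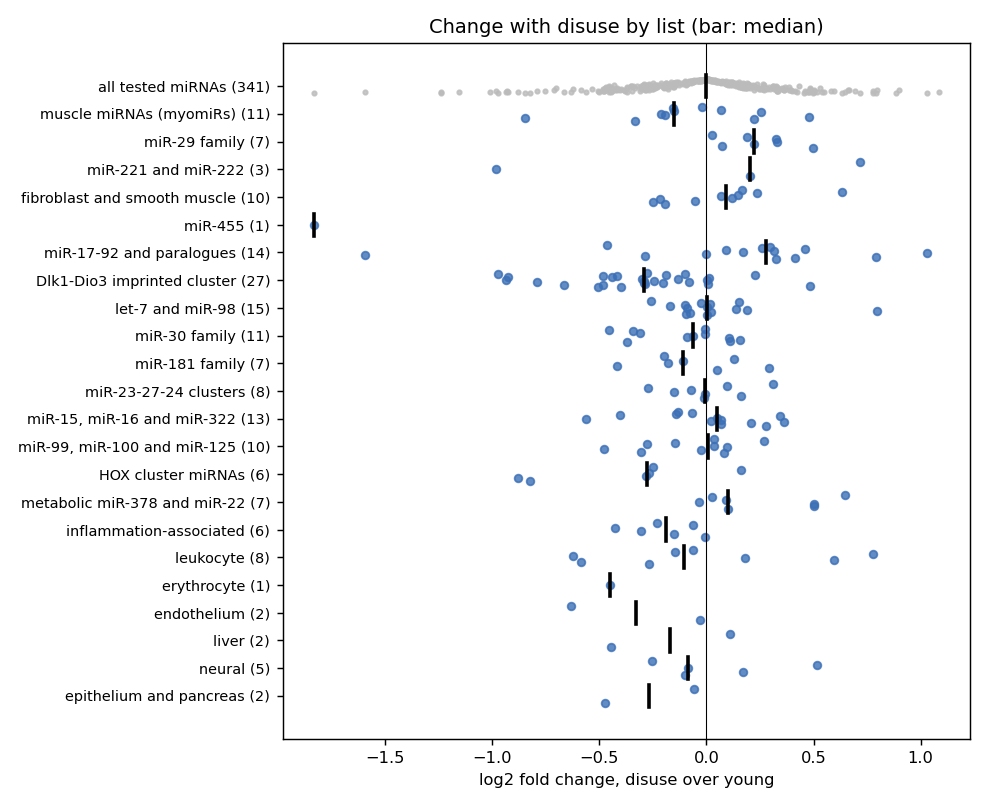
Log2 fold change of disuse over young muscle for the tested members of each list (blue points; number tested in brackets) and for all 341 tested miRNAs (grey), with the median as a bar. The miR-29 points all lie above 0 and 22 of the 27 Dlk1-Dio3 points below it, while most other lists straddle 0.

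Among the other lists, 0 members passed. The medians were 0.28 for the 14 tested members of the miR-17-92 list with its paralogues and 0.20 for the 3 of miR-221 and miR-222. The inflammation-associated list had 6 of 6 tested members below 0 (median -0.19), and under the 4 scalings tried 0 lay above the median of all miRNAs. With upper-quartile scaling 5 of the 6 lay below that median. miR-21a-5p, induced in many wounded tissues, was at 255 ± 38.8 CPM in young and 255 ± 39.0 CPM in disuse muscle, and miR-146b-5p at 66.0 ± 22.8 and 46.8 ± 7.10 CPM. The log2 fold change of miR-21a-5p was -0.005 and changed sign in 6 of 22 alternatives. Of the leukocyte list, miR-150-5p was at 22094 ± 5515 CPM in young and 25057 ± 4666 CPM in disuse muscle, and the list's median was -0.10. Of the endothelial pair, miR-126a-3p had a log2 fold change of -0.03 and miR-126a-5p of -0.63 ± 0.28 (adjusted p = 0.524), with 364 to 1537 CPM in young and 456 to 946 CPM in disuse muscle. The difference between these arms did not pass (-0.50 ± 0.28, adjusted p = 0.493), and both were below 0 among the libraries over 1000000 counts (-0.30 and -0.97). The sign of miR-126a-3p changed in 6 of 22 alternatives. The let-7 list (15 tested, median 0.00), the miR-30 list (11, -0.06), the miR-181 list (7, -0.11), the miR-23-27-24 list (8, -0.01) and the miR-99, miR-100 and miR-125 list (10, 0.01) lay near the median of all.

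The remaining medians were 0.05 for the 13 tested members of the miR-15, miR-16 and miR-322 list, -0.27 for the 6 of the HOX clusters and 0.10 for the 7 of the miR-378 and miR-22 list. They were -0.17 for the 2 hepatic members tested, -0.09 for the 5 neural members, -0.27 for the 2 of epithelium and pancreas and -0.45 for miR-451a, the tested member of the erythrocyte list. The value of miR-451a rested on young 4, at 108 CPM, and was -0.04 without it and -0.11 among the libraries over 1000000 counts. Across miRNAs the Spearman correlation with the log2 fold change was 0.04 for mean CPM (341 miRNAs), -0.01 for length and 0.18 for GC content (300 miRNAs each). These are descriptions over miRNAs of the same 10 libraries.

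The size of change that these libraries could have resolved varied with level. The 95% interval of the log2 fold change stayed within 1 on either side of 0, that is within a 2-fold change, for 230 of 341 miRNAs (67.4%). It did so for 110 of the 123 at 100 CPM or more (89.4%) and for 120 of the 218 below (55.0%). The median SE was 0.267, and 8 miRNAs had a log2 fold change over 1 in size.

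Set directly against old muscle, which also differs in age, disuse muscle differed in 12 miRNAs (3.52%), 10 higher and 2 lower. Age and disuse cannot be told apart in it. Of the miRNAs described above, miR-6240 was lower and miR-337-5p higher (log2 fold change 1.33 ± 0.30, adjusted p = 0.00856). The other 10, named here although they fall outside the rule for named miRNAs, are miR-34a-5p, which was lower in disuse, and let-7d-3p, miR-127-3p, miR-154-5p, miR-341-3p, miR-381-3p, miR-434-3p, miR-667-3p, miR-673-3p and miR-673-5p, which were higher. All of these 9 except let-7d-3p belong to the Dlk1-Dio3 domain. Between disuse and young muscle their log2 fold changes were -0.51 to 0.22. Over the 27 tested members of the domain the median was -1.08 between old and young muscle, beside -0.29 between disuse and young muscle. Both medians share the young libraries.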

How the data were processed

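Small RNA libraries were made from total RNA of tibialis anterior muscle with a TruSeq small RNA kit, per the labels' protocols. The submitters' processing notes name Bowtie and the mouse build mm10; how reads with several matches were counted, and on which annotation, was not given in the sources used here. As deposited by the authors, the table holds whole-number counts per mature miRNA and library, without normalization. Of 1183 miRNAs, 695 have all 29 values and were used. The 488 with 28 values lack a cell in the last deposited column, whose unit was therefore recorded as other. They were added only as an alternative. For it they were read from the right end of the header, which puts the gap in a serum column instead. By that reading they hold 0.0518% of muscle counts. Which reading is right was not tested, and under the other one their muscle values would stand under the wrong libraries. All columns matched a sample.

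Differences were tested with edgeR 4.0.16 in R 4.3.3 (quasi-likelihood, TMM factors, filterByExpr, Benjamini-Hochberg adjustment, threshold 0.05) on the 15 muscle libraries, with the contrast disuse minus young. CPM are TMM-scaled, and the SE is the log2 fold change divided by the root of F. Counts summed over RefSeq seeds were tested likewise. Arm ratios, log2 of 5p over 3p counts with 0.5 added to each, were tested with limma 3.58.1. DESeq2 1.42.0 and other scalings, filters, depths and subsets of libraries were alternatives, 2 of them (without both libraries under 300000 counts, and only libraries over 1000000) chosen after seeing the data. The tests were checked on simulated counts. With 2-fold changes, 75.8% of the changed miRNAs were recovered, with 6.25% false among those called. The test of arm ratios then recovered 48.7% of the changed hairpins, so it could miss changes of that size. With 4-fold changes the recovery was 99.0% for miRNAs and 92.3% for arm ratios. The 25 miRNAs with the smallest p, the 15 most abundant, the members of the 5 seed families and 5 hairpins with the smallest p, the members of the muscle, miR-29, miR-221 and miR-222, fibroblast and miR-455 lists and the extremes of each other list were named, 93 in all; miRNAs outside that rule (miR-340-5p, markers at or near 0, cluster members and those of the comparison with old muscle) were named after their values were seen. The members and lists were chosen with earlier results of these data known. Libraries with the same number in both groups did not deviate together, so the numbers were not taken as pairs.

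Totals of 254624 to 4822157 counts limit precision most in the 4 libraries under 1000000.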

Additional observations from a re-analysis of the deposited data

Results flagged for a closer look

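A library was singled out where its gap to the nearest other library of its group exceeded 0.71 of the group's range. This was checked in 186 groups of 5, for the 93 named miRNAs, and 14 were singled out, while chance alone gives about 1 in 20. Disuse 3, the shallowest library, accounted for 5: miR-10b-5p at 7082 CPM (2128 to 3147 in the others), miR-19b-3p at 28.1 CPM (3.95 to 6.07) and miR-133a-5p at 192 CPM (78.6 to 109.8) were high, and miR-24-2-5p at 32.1 CPM (78.9 to 86.4) and miR-29b-2-5p at 4.01 CPM (17.0 to 20.2) were low. Young 3 was high in 3, miR-6236 at 404 CPM (61.9 to 124), miR-125a-5p at 22796 CPM (10794 to 13249) and miR-99b-3p at 40.2 CPM (21.0 to 25.7).

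The other 6 were spread over 6 libraries. miR-1306-5p was at 25.5 CPM in young 1 (8.97 to 12.2 in the others), miR-29a-5p at 31.5 CPM in young 4 (10.9 to 13.4) and miR-27b-5p at 53.0 CPM in young 5 (23.9 to 29.1). miR-143-5p was at 74.2 CPM in disuse 1 (46.4 to 53.1), miR-30e-5p at 961 CPM in disuse 2 (1150.4 to 1226) and miR-337-5p at 23.3 CPM in disuse 4 (35.0 to 36.1).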

How the results depend on the processing

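Against 1 miRNA between disuse and young muscle, 2 passed with only the 2 groups fitted or with upper-quartile factors (miR-6240 added), without a filter (miR-205-5p added) and with the incomplete miRNAs (miR-92a-1-5p added), and 0 in limma-voom (miR-455-3p adjusted p = 0.0708; 25 unadjusted) and in libraries thinned to the shallowest (185 tested, miR-455-3p not among them; 15 unadjusted). Leaving out 1 library gave 0 to 2, with miR-214-3p added without young 2. Against 1 seed family, 2 passed without a filter, 0 in thinned libraries and 0 to 4 with 1 library left out: 0 without young 5 or disuse 1, 2, 4 or 5, and 4 without young 2. For arm ratios 0 passed under each alternative run, 3 to 12 at an unadjusted p under 0.05. Against old muscle 8 to 18 passed. With the replicate block 0 miRNAs (miR-455-3p -1.58, adjusted p = 0.0792), 0 seed families, 0 arm ratios and 14 miRNAs against old muscle passed. Same-numbered libraries correlated at -0.06 to 0.14, and none of the 5 disuse libraries correlated best with the young library of its number. Of the 93 named miRNAs, 55 kept their sign under all 22 alternatives that could test them, the 25 with the smallest p among them, and 38 changed it in at least 1, none while passing. Low counts limit the miRNAs under 100 CPM.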

Other observations

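miR-205-5p, a miRNA of skin and other epithelia, had 0, 1, 1, 1 and 1 counts in young libraries 1 to 5 and 4, 7, 2, 23 and 41 in disuse libraries 1 to 5. It did not pass the filter on low counts. Summed over the 5 libraries of each group, miR-184-3p had 58 counts in young and 94 in disuse muscle, miR-203-3p 49 and 59, miR-375-3p 35 and 28, miR-200c-3p 6 and 16, miR-200b-3p 2 in each group and miR-200a-3p 0. These counts are not scaled to depth, and library totals had a median of 535754 in young and 2298437 in disuse muscle. Scaled, miR-184-3p and miR-203-3p had log2 fold changes of -0.06 and -0.47. miR-205-5p reached at most 1.91 CPM in a young and 16.7 CPM in a disuse library. The part of epithelial cells in the count of miR-205-5p was not tested.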
